A study of Homo sapiens with 6 samples.

Results

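The expression of 10 genes that build and edit heparan sulfate was examined in the human ovarian cancer cell line HEY, with and without overexpression of CSGALNACT2. The genes EXT1, EXT2, EXTL2, EXTL3, NDST1, NDST2, GLCE, HS2ST1, HS6ST1 and SULF2 were found by their gene name among the 58735 genes of the FPKM table, each in 1 row. FPKM counts the reads of a gene scaled by the length of the gene and the size of the library. The oeCSGALNACT2 cells had received a plasmid with full-length human CSGALNACT2, and the Vector cells the empty plasmid, with 3 sequenced libraries per group. The study describes the cells both as transfected and as stably overexpressing, and all 6 libraries come from this 1 cell line. Whether the 3 libraries of each group derive from separate cultures is not stated, and all p-values therefore refer to the spread between libraries, which may be technical.

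Heparan sulfate is a long sugar chain carried by core proteins at the cell surface and in the extracellular matrix. It starts on the same linker sugars as chondroitin sulfate, the chain that CSGALNACT2, an N-acetylgalactosaminyltransferase, helps to start and lengthen. EXTL3 adds the first N-acetylglucosamine to the linker, and the complex of EXT1 and EXT2 extends the chain. NDST enzymes then replace acetyl groups by sulfate, GLCE turns glucuronic into iduronic acid, HS2ST1 and HS6ST1 add sulfate at the 2-O and 6-O positions, and SULF2 removes 6-O-sulfate outside the cell. The pattern of sulfate along the chain sets which growth factors and chemokines it binds.

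CSGALNACT2 itself had 466 ± 63.6 FPKM in oeCSGALNACT2 cells and 10.5 ± 4.13 FPKM in Vector cells (SD, n = 3 libraries each), a log2 fold change of 5.39 (SE 0.27, limma adjusted p = 0.00302). The titles of the oeCSGALNACT2 samples name CSGALNACT1, which had 0.0955 ± 0.043 FPKM in oeCSGALNACT2 and 0.183 ± 0.115 FPKM in Vector cells, whereas the sample descriptions name CSGALNACT2. Libraries held between 15628834 and 18186682 reads. In both groups replicate 1 differed from replicates 2 and 3. Across genes, Pearson's r of replicates 2 and 3 was 0.985 in oeCSGALNACT2 and 0.990 in Vector cells, and that of replicate 1 with either of them was 0.887 to 0.894 in oeCSGALNACT2 and 0.892 to 0.913 in Vector cells. The mitochondrial share of reads was 4.60% to 4.82% in oeCSGALNACT2 and 2.77% to 3.61% in Vector libraries. Of 9 epithelial and ovarian markers, KRT7, KRT8, KRT18, PAX8 and WT1 passed the filter on low values. The other 4, KRT19, EPCAM, CDH1 and MUC16, did not, with CDH1 and MUC16 at or near 0. The list summed to 332 to 572 FPKM in oeCSGALNACT2 and 177 to 322 FPKM in Vector libraries. The 6 leukocyte markers summed to at most 0.719 FPKM, and of the 7 fibroblast markers only COL1A1 passed the filter (sums of 3.04 to 5.70 FPKM in oeCSGALNACT2 and 3.29 to 5.22 FPKM in Vector libraries). The 5 endothelial markers summed to 6.34 to 10.5 FPKM in oeCSGALNACT2 and 19.9 to 31.1 FPKM in Vector libraries, nearly all of it CDH5, with PECAM1, VWF, TEK and CLDN5 below 0.4 FPKM in every library. The part of these differences between the groups in the results on heparan sulfate genes was not tested.

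The 10 genes differed widely in level. Per length, EXT1, SULF2 and EXT2 stood highest, with means over all 6 libraries of 32.7, 32.0 and 29.4 FPKM, followed by NDST1 with 22.8 FPKM. These 4 neighbours in the order did not separate over all 6 libraries, and their order differed between the groups. EXT1 lay above SULF2 in 3 of 6 libraries, all of them Vector. SULF2 lay above EXT2 in 3 of 6, all of them oeCSGALNACT2. Some of these margins were narrow, as SULF2 and EXT2 had 26.9 and 26.8 FPKM in oeCSGALNACT2 replicate 1. In Vector replicate 3 they had 31.3 and 31.4 FPKM. EXT2 lay above NDST1 in 4 of 6 libraries. HS2ST1 (10.2 FPKM), EXTL2 (8.21 FPKM), EXTL3 (7.51 FPKM) and GLCE (5.05 FPKM) came next. NDST1 exceeded HS2ST1 in 5 of 6 libraries, HS2ST1 exceeded EXTL2 in 6 of 6, EXTL2 exceeded EXTL3 in only 2 of 6, and EXTL3 exceeded GLCE in 4 of 6. HS6ST1 followed at 2.46 FPKM, below GLCE in 6 of 6 libraries. NDST2 was last in every library, with a mean of 0.0317 FPKM. EXT1 lay above 89.9% of the 11479 genes tested by its mean, and HS6ST1 above 21.5%.

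**Figure D1:**
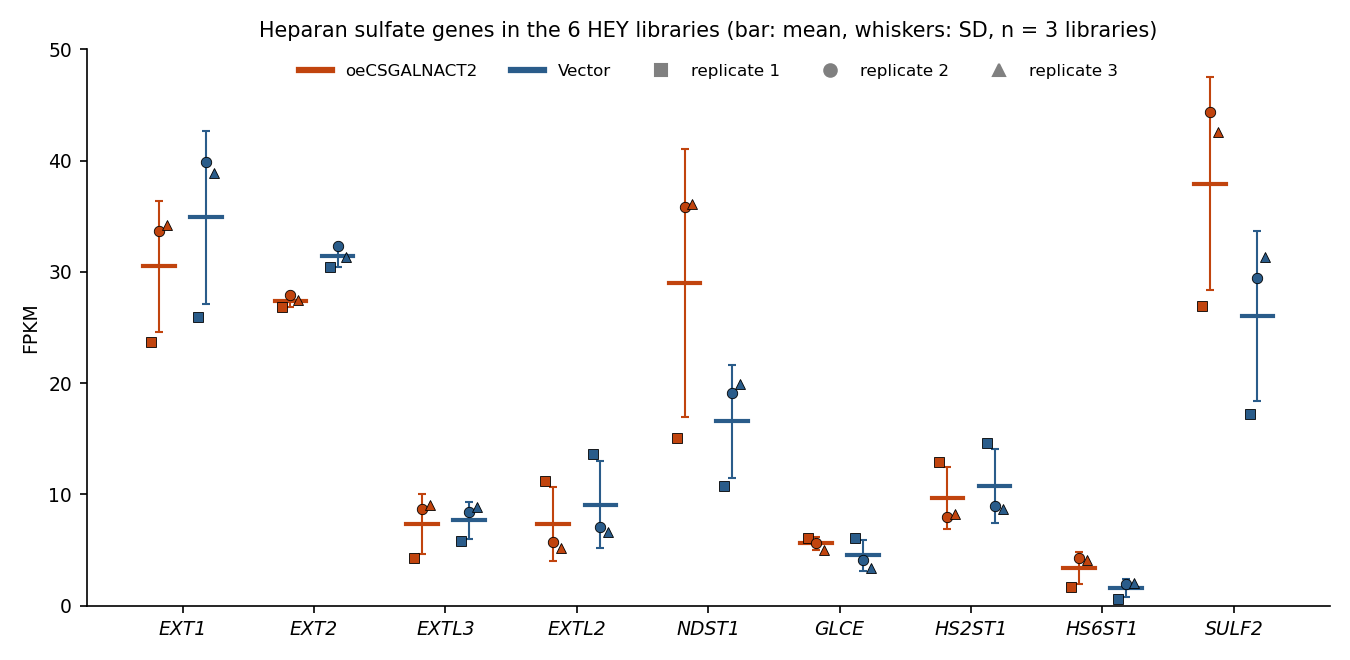
FPKM of the 9 tested heparan sulfate genes in oeCSGALNACT2 (left of each pair) and Vector cells (right), with 1 symbol per library, the mean as a bar and the SD as whiskers (n = 3 libraries). NDST1, HS6ST1 and SULF2 are higher in oeCSGALNACT2 cells within each replicate number, but replicate 1 lies below replicates 2 and 3 in both groups, so the groups overlap; EXT2 is the gene of the 9 whose groups do not overlap.

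The groups were compared with limma on log2(FPKM + 1), a scale on which the change of a low gene is understated, for genes with a mean of at least 1 FPKM. A total of 9 of the 10 genes passed this filter, and NDST2 did not. None of the 9 genes passed an adjusted p of 0.05 in either direction, against 1.35% of all genes tested (0.505% higher and 0.845% lower in oeCSGALNACT2 cells). The count of the 9 at an unadjusted p under 0.05 was 0 in limma, against 17.1% of all genes. On the reads recovered from the FPKM values, the count at the adjusted threshold was 0 in edgeR (0.971% of all genes) and 0 in DESeq2 (2.60% of all genes), with 0 of 9 genes in edgeR (17.2% of all genes) and 2 of 10 in DESeq2, NDST1 and HS6ST1 (9.70% of all genes), at an unadjusted p under 0.05. DESeq2 gave NDST2 no adjusted p, and its share of 2.60% counts genes without an adjusted p as not called. The median log2 fold change of the 9 genes was -0.10, against -0.01 over all genes tested. Its direction depended on single libraries, as the median was 0.20 when replicate 1 of oeCSGALNACT2 cells was left out. It was 0.088 with Vector replicate 1 left out, 0.0052 with Vector replicate 3 left out and 0.036 in replicates 2 and 3 alone. In RNA of whole cultures, fewer expressing cells and less RNA per cell cannot be told apart. The oeCSGALNACT2 and Vector values overlapped for 8 of the 9 genes, and EXT2 lay lower in every oeCSGALNACT2 library, a pattern that 12.8% of all genes showed.

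Same-numbered libraries of the groups deviated together from their group means, although no label pairs them. Replicates 2 and 3 also did so across numbers. Pearson's r was 0.682 for Vector replicate 3 with oeCSGALNACT2 replicate 2, against 0.631 for the replicates 2. Pairing by number is thus not shown for 2 and 3, and it comes from these data. With the replicate number as a block limma called 5 of the 9 genes, against 43.7% of all genes tested. Higher in oeCSGALNACT2 cells were NDST1, HS6ST1 and SULF2 (3 of 9, against 21.2% of all genes), and lower were EXT2 and EXTL2 (2 of 9, against 22.5%). With edgeR on reads and the same block, 42.3% of all genes passed, and of the 9 genes NDST1, GLCE, HS6ST1 and SULF2 were higher and EXTL2 was lower. Within the same-numbered pairs, 4 of the 9 genes were higher in oeCSGALNACT2 cells in all 3 pairs (33.4% of all genes) and 4 were lower in all 3 (35.6%). The block thus called a share of the 9 genes not far from that of all genes, and what follows describes each gene rather than the set.

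**Figure D2:**
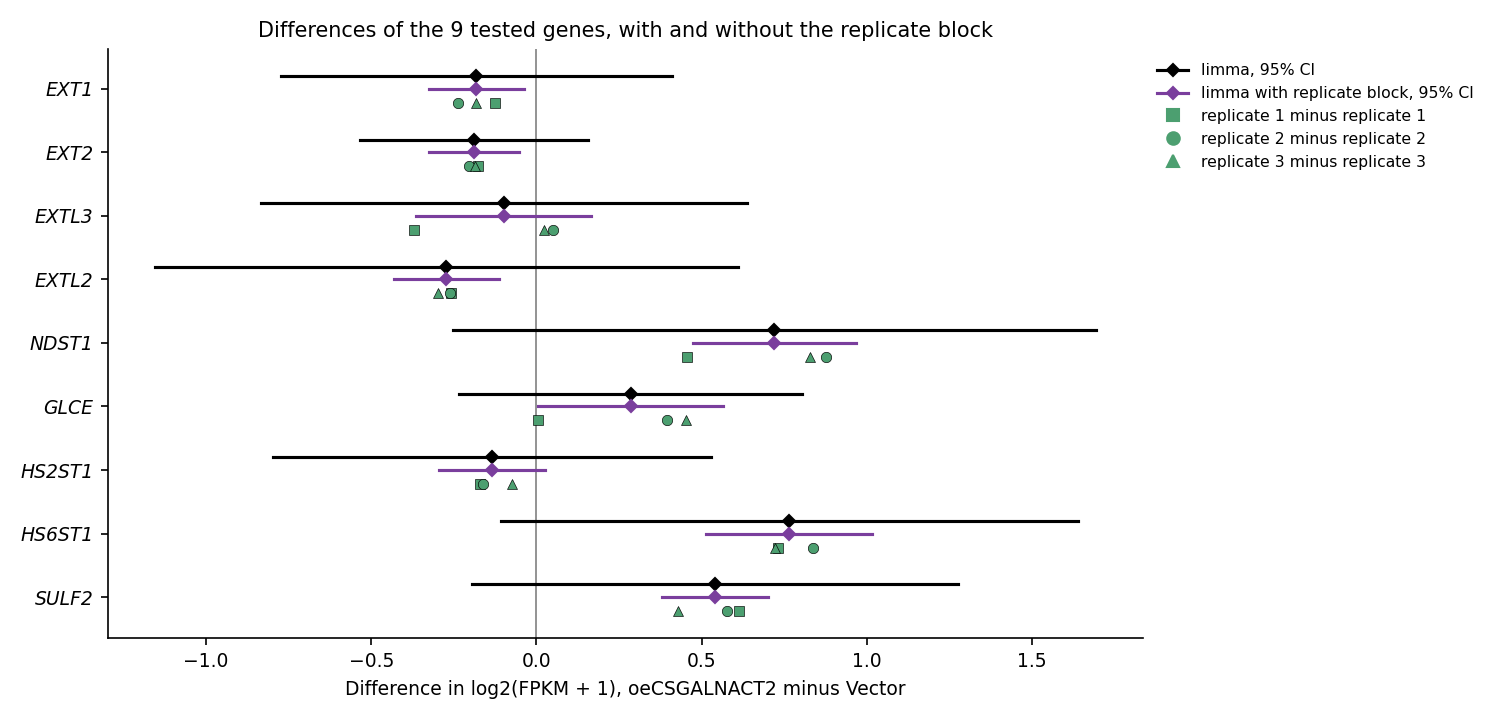
Differences in log2(FPKM + 1) between oeCSGALNACT2 and Vector cells for the 9 tested genes. Black diamonds and lines give limma's estimate with its 95% confidence interval, purple ones the same with the replicate number as a block, and green symbols the difference of each same-numbered pair of libraries. Each black interval includes 0, while the purple intervals of NDST1, GLCE, HS6ST1 and SULF2 lie wholly above 0 and those of EXT1, EXT2 and EXTL2 wholly below; EXT1 and GLCE did not pass after adjustment over all genes.

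EXT1 and EXT2 encode the partners of the polymerase that adds glucuronic acid and N-acetylglucosamine in turn. EXT2 (chr11:44095549-44245429, plus strand, GRCh38) had 26.8, 28.0 and 27.5 FPKM in oeCSGALNACT2 replicates 1, 2 and 3, against 30.5, 32.3 and 31.4 FPKM in Vector replicates 1, 2 and 3. The difference was small and even, at 0.880, 0.865 and 0.875 of the same-numbered Vector library. Its log2 fold change was -0.19 (SE 0.14, limma adjusted p = 0.570 without the block and 0.0383 with it). EdgeR with the block gave EXT2 an adjusted p of 0.0703. EXT1 had 23.7, 33.6 and 34.2 FPKM in oeCSGALNACT2 cells, against 25.9, 39.9 and 38.9 FPKM in Vector cells. It too was lower in each oeCSGALNACT2 library than in the Vector library of the same number, at 0.914, 0.844 and 0.879 of it, with a log2 fold change of -0.18 (SE 0.25, limma adjusted p = 0.772). Leaving out 1 library at a time without the block, the log2 fold change of EXT1 lay between -0.38 (without Vector replicate 1) and -0.015 (without oeCSGALNACT2 replicate 1). With the block the adjusted p of EXT1 was 0.0507 from limma, just outside the threshold, and 0.0771 from edgeR.

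The ratio of EXT1 to EXT2, the level of one partner per length over that of the other, was 1.11 ± 0.197 in oeCSGALNACT2 and 1.11 ± 0.222 in Vector cells (SD, n = 3 libraries each). The exact permutation test gave p = 0.8 (two-sided; 3 libraries against 3 cannot go below 0.1), and 0.8 after adjustment over the 3 ratios computed. In both groups the ratio was lower in replicate 1, at 0.884 in oeCSGALNACT2 and 0.852 in Vector cells, than in replicates 2 and 3, where it lay between 1.20 and 1.25.

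EXTL3 starts the chain, and EXTL2 is a transferase that acts on the linker region and can end its growth. EXTL2 (chr1:100872372-100895998, minus strand, GRCh38) had 11.2, 5.70 and 5.17 FPKM in oeCSGALNACT2 cells, against 13.6, 7.03 and 6.59 FPKM in Vector cells. Replicate 1 had the highest value in both groups, and each oeCSGALNACT2 library lay below its same-numbered Vector library, at 0.824, 0.811 and 0.785 of it. The log2 fold change of EXTL2 was -0.27 (SE 0.37, limma adjusted p = 0.770 without the block, 0.0211 with it, and 0.0330 from edgeR with it). When the GC trend of the libraries was removed in addition to the block, its adjusted p was 0.112 in limma, and without Vector replicate 1 and with no block its log2 fold change was 0.03. EXTL3 had 4.25, 8.70 and 9.06 FPKM in oeCSGALNACT2 cells, against 5.79, 8.37 and 8.91 FPKM in Vector cells. Its same-numbered pairs did not share a direction, with ratios of 0.735, 1.04 and 1.02. The log2 fold change of EXTL3 was -0.10 (SE 0.31, 95% confidence interval -0.83 to 0.64, limma adjusted p = 0.916), and with the block the interval was -0.36 to 0.17 (adjusted p = 0.476).

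NDST1 and NDST2 are paralogous N-deacetylase and N-sulfotransferase enzymes, whose action comes before the later sulfation steps. NDST1 (chr5:150485818-150558211, plus strand, GRCh38) had 15.1, 35.8 and 36.1 FPKM in oeCSGALNACT2 cells, against 10.7, 19.1 and 19.9 FPKM in Vector cells. Replicates 2 and 3 of oeCSGALNACT2 cells lay above all Vector libraries, while replicate 1 of oeCSGALNACT2 cells lay between the Vector libraries. The oeCSGALNACT2 libraries were 1.41-, 1.88- and 1.81-fold higher than the Vector libraries of the same number. The log2 fold change of NDST1 was 0.72 (SE 0.40, 95% confidence interval -0.25 to 1.69, adjusted p = 0.435) from limma without the block, higher than that of 94.5% of the genes tested. With the block, the interval of NDST1 was 0.47 to 0.97 (adjusted p = 0.00435), and the adjusted p was 2.07e-05 from edgeR with the block. Leaving out 1 library at a time without the block, the log2 fold change of NDST1 lay between 0.45 (without Vector replicate 1) and 1.12 (without oeCSGALNACT2 replicate 1), with adjusted p from 0.119 to 0.787.

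NDST2 was at the limit of detection. NDST2 (chr10:73801911-73811798, minus strand, GRCh38) had 5, 4 and 0 reads in oeCSGALNACT2 replicates 1, 2 and 3, against 0, 3 and 3 reads in Vector replicates 1, 2 and 3. A count of 0 allows up to 3 reads, which equals 0.0352 FPKM in oeCSGALNACT2 replicate 3 and 0.0392 FPKM in Vector replicate 1 (counting error only). No difference was detectable at these read counts, and no ratio of NDST1 to NDST2 was computed. Of the exon bases of NDST2, 82.9% also belong to the same-strand gene AC022400.6, which is listed with 0 reads in all 6 libraries, so the level of NDST2 is uncertain, because the sources used here do not say how reads shared by overlapping genes were counted.

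GLCE, the C5-epimerase, and HS2ST1, which sulfates the iduronic acid that GLCE makes, act in succession. GLCE (chr15:69160584-69272217, plus strand, GRCh38) had 6.10, 5.67 and 5.01 FPKM in oeCSGALNACT2 cells, against 6.08, 4.07 and 3.39 FPKM in Vector cells. Its replicate 1 values were nearly equal, and the oeCSGALNACT2 libraries were 1.39- and 1.48-fold higher in replicates 2 and 3. GLCE had a log2 fold change of 0.28 (SE 0.22, limma adjusted p = 0.570), which was 0.13 without Vector replicate 3 and 0.48 without Vector replicate 1. With the block it passed in edgeR (adjusted p = 0.0276) but not in limma (0.0915), and with the GC trend removed as well limma gave 0.0340. In replicates 2 and 3 alone, where 41.8% of all genes passed, the adjusted p of GLCE was 0.0297.

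HS2ST1 (chr1:86914648-87109998, plus strand, GRCh38) had 12.9, 7.92 and 8.21 FPKM in oeCSGALNACT2 cells, against 14.6, 8.98 and 8.68 FPKM in Vector cells. Each oeCSGALNACT2 library lay slightly below its same-numbered Vector library, at 0.881, 0.882 and 0.945 of it. HS2ST1 had a log2 fold change of -0.13 (SE 0.28, 95% confidence interval -0.80 to 0.53, limma adjusted p = 0.863), and with the block the interval was -0.29 to 0.02 (adjusted p = 0.141). Of the exon bases of HS2ST1, 9.69% also belong to the same-strand gene AC093155.3, which is listed with 0 reads in all 6 libraries, so that reads of these bases cannot be assigned with certainty. The ratio of GLCE to HS2ST1 was 0.474, 0.716 and 0.610 in oeCSGALNACT2 replicates 1, 2 and 3, against 0.415, 0.453 and 0.390 in Vector replicates 1, 2 and 3. The groups did not overlap in this ratio, and the difference on the log2 scale was 0.50 (two-sided exact permutation p = 0.1, the smallest that 3 against 3 allow, and 0.3 after adjustment over the 3 ratios).

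HS6ST1 and SULF2 act on the same 6-O-sulfate, the one adding it in the Golgi and the other removing it at the cell surface, and both were higher in oeCSGALNACT2 cells with the block. HS6ST1 (chr2:128236716-128318577, minus strand, GRCh38) had 1.72, 4.28 and 4.09 FPKM in oeCSGALNACT2 cells, against 0.636, 1.95 and 2.08 FPKM in Vector cells. These values rest on 131, 341 and 350 reads in oeCSGALNACT2 cells and on 49, 165 and 165 reads in Vector cells. Replicates 2 and 3 of oeCSGALNACT2 cells had about the same level and lay above every Vector library, and replicate 1 lay below replicates 2 and 3 within each group. Within the same numbers HS6ST1 was 2.70-, 2.19- and 1.96-fold higher in oeCSGALNACT2 cells. On the log2(FPKM + 1) scale its difference was 0.76 (SE 0.36, 95% confidence interval -0.11 to 1.64, limma adjusted p = 0.355 without the block), higher than that of 95.3% of the genes tested. With the block, limma's interval for HS6ST1 was 0.51 to 1.01 (adjusted p = 0.00380). On reads, where no pseudocount of 1 FPKM compresses a low gene, edgeR with the block gave HS6ST1 a log2 fold change of 1.19 (adjusted p = 0.000137). Leaving out 1 library at a time without the block, the adjusted p of HS6ST1 ranged between 0.137 and 0.697, and its log2 fold change was lowest, at 0.47, without Vector replicate 1.

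SULF2 (chr20:47656348-47786616, minus strand, GRCh38) had 26.9, 44.3 and 42.5 FPKM in oeCSGALNACT2 cells, against 17.3, 29.4 and 31.3 FPKM in Vector cells. Replicate 1 was the lowest library in both groups, and that of oeCSGALNACT2 cells lay below Vector replicates 2 and 3. Within the same numbers SULF2 was 1.56-, 1.51- and 1.36-fold higher in oeCSGALNACT2 cells. On the log2(FPKM + 1) scale this was a difference of 0.54 (SE 0.31, 95% confidence interval -0.20 to 1.27, limma adjusted p = 0.439 without the block). With the block the interval of SULF2 was 0.38 to 0.70 (adjusted p = 0.00304), and the adjusted p was 3.66e-05 from edgeR with the block. Leaving out 1 library at a time without the block, its log2 fold change was lowest, at 0.28, without Vector replicate 1 and highest, at 0.76, without oeCSGALNACT2 replicate 1. Of the exon bases of SULF2, 1.44% are shared with NCOA3 on the other strand, which had a mean of 13.8 FPKM, and as the sources used here do not say whether strand was used in counting, reads of these bases cannot be told apart.

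The ratio of SULF2 to HS6ST1, the level of the removing enzyme over that of the adding enzyme, was 15.7, 10.4 and 10.4 in oeCSGALNACT2 replicates 1, 2 and 3, against 27.1, 15.1 and 15.1 in Vector replicates 1, 2 and 3. It was lower in oeCSGALNACT2 cells in 3 of 3 same-numbered pairs, but oeCSGALNACT2 replicate 1 lay above Vector replicates 2 and 3. The means were 12.1 ± 3.05 in oeCSGALNACT2 and 19.1 ± 6.97 in Vector cells (SD, n = 3 libraries each; exact permutation test, two-sided, p = 0.3, and 0.45 after adjustment over the 3 ratios).

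The start regions of the 3 genes that were called higher with the block are shown to set their sequences side by side. Whether the 3 genes changed together was not tested. Each covers 250 bases before and 50 after a start that RefSeq gives (GRCh38.p14), in lower case, with capitals for each GC box (the letters GGGCGG or, on the other strand, CCGCCC). The window of NDST1 is chr5:150497529-150497828 (plus strand) and lies inside the gene, downstream of the gene start in the deposited table. That of HS6ST1 is chr2:128318819-128319118 (minus strand), and that of SULF2 is chr20:47786578-47786877 (minus strand).
NDST1: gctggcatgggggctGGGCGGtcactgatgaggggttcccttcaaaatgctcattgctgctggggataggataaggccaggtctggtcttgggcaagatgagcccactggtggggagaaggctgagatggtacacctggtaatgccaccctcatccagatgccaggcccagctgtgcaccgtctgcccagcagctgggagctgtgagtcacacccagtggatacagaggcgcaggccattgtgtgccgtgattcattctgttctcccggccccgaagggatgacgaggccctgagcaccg
HS6ST1: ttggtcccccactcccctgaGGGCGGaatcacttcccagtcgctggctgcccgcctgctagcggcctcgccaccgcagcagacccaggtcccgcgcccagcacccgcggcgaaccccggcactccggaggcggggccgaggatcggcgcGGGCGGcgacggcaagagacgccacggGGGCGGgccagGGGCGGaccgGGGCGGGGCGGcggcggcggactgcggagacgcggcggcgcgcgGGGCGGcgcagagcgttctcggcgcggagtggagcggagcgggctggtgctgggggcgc
SULF2: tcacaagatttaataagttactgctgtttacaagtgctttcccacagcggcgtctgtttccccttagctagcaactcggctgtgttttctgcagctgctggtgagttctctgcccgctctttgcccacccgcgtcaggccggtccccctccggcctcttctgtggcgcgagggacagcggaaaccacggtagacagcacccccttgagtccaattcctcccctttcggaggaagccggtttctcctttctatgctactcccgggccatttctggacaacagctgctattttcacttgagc

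The 3 windows differed in composition. HS6ST1 had a GC content of 79.7%, above that of 97.2% of the 27305 RefSeq promoters of the same length, with 7 GC box matches, 2 of which overlap. NDST1 had 60.7% GC and 1 match, and SULF2 had 55.7% GC and none, against a median of 58.3% GC over all promoters, of which 44.6% hold at least 1 GC box. An AP-1 motif (TGACTCA, on either strand) was found in NDST1 alone of these 3, and 4.92% of all promoters hold it. The E-box CACGTG (7.43% of all promoters), the EGR1 motif GCGTGGGCG (0.784%) and the TATA box TATAAA (11.95%) were found in none of the 3 windows. No one of the 5 motifs occurred in all 3. Of the other genes, 5 were in the table: the GC box had 5 matches in GLCE, 4 in HS2ST1, 4 in NDST2, 2 in EXTL2 and 0 in EXT2. EXTL2 also held an E-box and EXT2 a TATA box. A match is a description of letters, not a binding site. No window was analysed here for EXT1 and EXTL3.

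The offset of replicate 1 differed between the 9 tested genes and followed their base composition. Replicate 1 lay below replicates 2 and 3 in both groups for EXT1, EXT2, EXTL3, NDST1, HS6ST1 and SULF2 (6 of 9, against 39.9% of all genes), and above them in both groups for EXTL2, GLCE and HS2ST1 (3 of 9, against 41.3%). The GC content of the transcripts was 39.5% in EXTL2, 40.5% in GLCE and 42.1% in HS2ST1, against 46.1% in EXT1, 49.1% in EXT2, 51.6% in EXTL3, 52.5% in SULF2, 58.8% in HS6ST1 and 61.9% in NDST1. The 3 genes with the lowest GC content were thus those with the high replicate 1. HS6ST1 in replicate 1 stood at 0.411 of the mean of replicates 2 and 3 in oeCSGALNACT2 cells and at 0.315 of it in Vector cells, and EXTL2 at 2.06 times that mean in oeCSGALNACT2 and 2.00 times in Vector cells. Across the 9 genes, Spearman's rho between GC content and the offset of replicate 1 was -0.95 in oeCSGALNACT2 and -0.92 in Vector cells, and across 11476 genes it was -0.78 in oeCSGALNACT2 and -0.82 in Vector cells. These are descriptions across genes, which share libraries and are not independent replicates, and whether the offset is technical or biological was not tested.

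**Figure D3:**
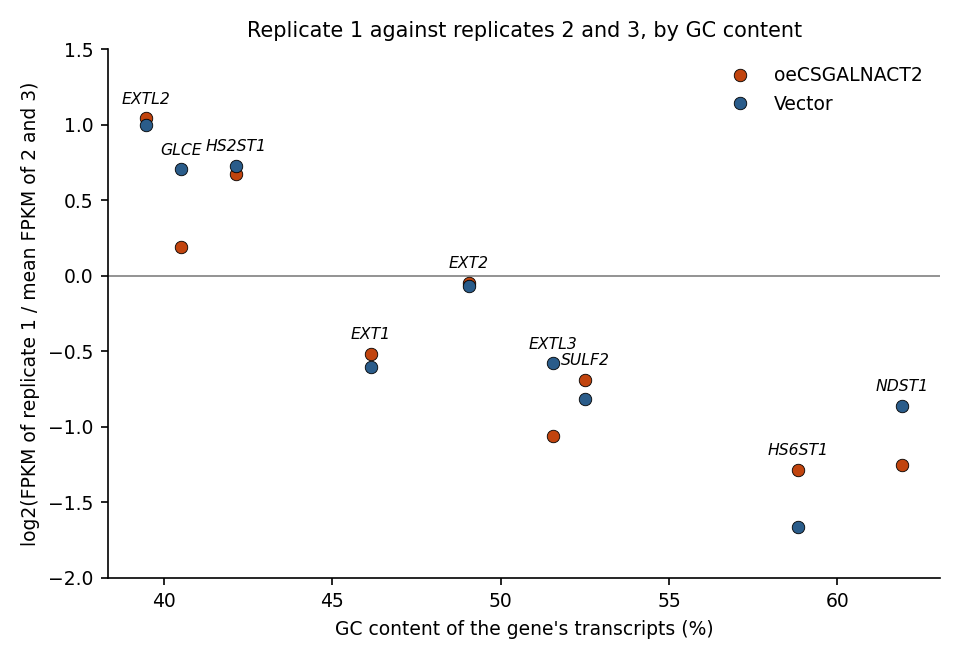
The log2 ratio of replicate 1 to the mean of replicates 2 and 3 (vertical axis) against the GC content of the gene's transcripts in percent (horizontal axis), with 1 point per gene and group for the 9 tested genes. EXTL2, GLCE and HS2ST1, with the lowest GC content (39.5% to 42.1%), lie above 0 in both groups, and HS6ST1 and NDST1, with the highest (58.8% and 61.9%), lie furthest below it in oeCSGALNACT2 cells.

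The calls with the block were therefore repeated after removing a GC trend per library, an alternative chosen after seeing the data, under which 42.7% of all genes passed. NDST1, HS6ST1 and SULF2 passed again, with log2 fold changes of 0.59 (adjusted p = 0.00846), 0.67 (adjusted p = 0.00554) and 0.49 (adjusted p = 0.00391) from limma. EXT2 passed as well (-0.17, adjusted p = 0.0405). In replicates 2 and 3 alone, without the replicate that stood apart, the log2 fold changes from limma were 0.85 for NDST1 (adjusted p = 0.00117), 0.78 for HS6ST1 (0.00297) and 0.50 for SULF2 (0.00490), and EXT2 did not pass (0.0592). EXT1 (0.0459) and EXTL2 (0.0472) passed as lower there.

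The rest of the pathway was read from 5 lists with 58 further genes, of which 38 passed the filter. In limma without the block 0 of the 38 passed (1.35% of all genes), with 6 at an unadjusted p under 0.05 (17.1% of all genes). Each read-based method tested a set of its own. EdgeR called 0 of 42 (0.971% of all genes) and DESeq2 called 2 of 49 (2.60% of all genes), HPSE and ARSG, both lower. Of the 49, EXTL1, NDST3, NDST4, HS3ST3B1 and HS3ST5 got no adjusted p from DESeq2 and could not be called. The DESeq2 share of all genes likewise counts genes without an adjusted p as not called. With the block 12 were higher and 5 lower in oeCSGALNACT2 cells, or 17 of 38 against 43.7% of all genes. Their median log2 fold change was 0.06, against -0.01 over all genes, and it lay between 0.015 (without Vector replicate 1) and 0.15 (without Vector replicate 3) when 1 library was left out.

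Among 15 other heparan sulfate enzymes, 6 had no read in any library, SULF1, the paralog of SULF2, among them, and 13 had a mean below 1 FPKM. The 3-O-sulfotransferases, which add a rare sulfate such as that bound by antithrombin, were all among these 13, as were NDST3 and NDST4. HPSE, heparanase, which cuts the chain in the matrix and in lysosomes, had 2.63, 1.77 and 1.80 FPKM in oeCSGALNACT2 cells, against 5.18, 4.11 and 3.72 FPKM in Vector cells. The groups did not overlap, as for 12.8% of all genes in this direction. The oeCSGALNACT2 libraries stood at 0.508, 0.430 and 0.483 of the same-numbered Vector library. HPSE had a log2 fold change of -0.80 (SE 0.19, limma adjusted p = 0.103 without the block and 0.00254 with it, and 0.0328 from DESeq2). HS6ST2, a paralog of HS6ST1, averaged 6.29 ± 1.49 FPKM in oeCSGALNACT2 and 5.40 ± 0.441 FPKM in Vector cells (SD, n = 3 libraries each), with a log2 difference of 0.17 (limma adjusted p = 0.722, 0.211 with the block).

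Of the 7 linker genes, whose products add or modify the sugars that heparan and chondroitin sulfate share, 5 were tested. With the block 1 of the 5 passed, against 43.7% of all genes. B3GALT6, the galactosyltransferase of the third linker sugar, had 12.9, 24.4 and 26.6 FPKM in oeCSGALNACT2 cells, against 4.08, 11.96 and 12.6 FPKM in Vector cells. Its lowest oeCSGALNACT2 value, in replicate 1, lay just above the highest Vector value, in replicate 3. Groups without overlap in this direction were seen for 11.2% of all genes. B3GALT6 had a log2 fold change of 1.15 (SE 0.46, limma adjusted p = 0.277 without the block and 0.00185 with it). Without Vector replicate 1 and with no block its log2 fold change was 0.69. FAM20B, the xylose kinase (14.3 ± 3.67 FPKM in oeCSGALNACT2 and 16.3 ± 4.01 FPKM in Vector cells), B4GALT7 (5.17 ± 2.14 FPKM in oeCSGALNACT2 and 4.55 ± 1.60 FPKM in Vector cells) and XYLT2 (10.4 ± 6.52 FPKM in oeCSGALNACT2 and 10.8 ± 5.15 FPKM in Vector cells) had adjusted p of 0.0598, 0.450 and 0.367 with the block (limma, SD, n = 3 libraries each).

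All 14 genes for the supply of sulfate donor and UDP-sugars were tested. With the block 5 were higher (against 21.2% of all genes) and 2 lower (against 22.5%). The median log2 fold change of the 14 was 0.08, which became -0.047 when replicate 1 of oeCSGALNACT2 cells was left out. SLC26A2, a sulfate transporter of the cell membrane, had 15.1, 12.3 and 12.3 FPKM in oeCSGALNACT2 cells, against 10.3, 7.33 and 7.06 FPKM in Vector cells. The groups of SLC26A2 did not overlap, as for 11.2% of all genes in this direction. Its log2 fold change was 0.64 (SE 0.20, limma adjusted p = 0.179 without the block and 0.00275 with it). PAPSS2, which makes the sulfate donor PAPS, averaged 41.3 ± 4.95 FPKM in oeCSGALNACT2 and 30.9 ± 5.35 FPKM in Vector cells (SD, n = 3 libraries each; limma adjusted p = 0.341 and 0.00477 with the block). UGDH, which makes UDP-glucuronic acid, averaged 11.6 ± 3.14 FPKM in oeCSGALNACT2 and 6.84 ± 1.96 FPKM in Vector cells (SD, n = 3 libraries each; limma adjusted p = 0.263 and 0.00668 with the block).

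The 9 lysosomal genes for heparan sulfate breakdown were all tested. With the block 2 were higher (against 21.2% of all genes) and 2 lower (against 22.5%). The median log2 fold change of the 9 was 0.05, which became -0.15 when Vector replicate 1 was left out. HGSNAT, an acetyltransferase of the lysosomal membrane, averaged 3.81 ± 0.926 FPKM in oeCSGALNACT2 and 2.65 ± 0.158 FPKM in Vector cells (SD, n = 3 libraries each; limma adjusted p = 0.0482 with the block and 0.375 without). IDS, which removes 2-O-sulfate, averaged 5.21 ± 0.455 FPKM in oeCSGALNACT2 and 7.21 ± 1.62 FPKM in Vector cells, and the sulfatase ARSG 0.704 ± 0.297 FPKM in oeCSGALNACT2 and 1.80 ± 0.307 FPKM in Vector cells (SD, n = 3 libraries each; limma adjusted p 0.0270 and 0.0192 with the block, 0.366 and 0.131 without). ARSG averaged below 1 FPKM in oeCSGALNACT2 cells and passed the filter only through the Vector group. Its place among the 2 lower genes is therefore not independent of the filter. DESeq2, run without this filter, called ARSG at an adjusted p of 0.0241.

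Of the 13 core protein genes 8 were tested, and with the block 4 were higher (against 21.2% of all genes) and 0 lower (against 22.5%), around a median of 0.17. With the GC trend removed as well, 4 were higher (against 21.0% of all genes) and 1 lower (against 21.7%). Leaving out replicate 1 of oeCSGALNACT2 cells gave a median of 0.52, and leaving out Vector replicate 1 gave 0.0081. EdgeR without the block gave -0.015, but over the 9 core genes that passed its own filter, a different set. The 4 genes called higher by limma with the block all encode proteoglycans of the cell surface. SDC1, syndecan-1, had 15.4, 44.6 and 48.2 FPKM in oeCSGALNACT2 cells, against 9.34, 19.3 and 21.6 FPKM in Vector cells. Replicate 1 of oeCSGALNACT2 cells lay between the Vector libraries, as for NDST1 (log2 fold change 0.98, SE 0.51, limma adjusted p = 0.394 without the block and 0.00286 with it). Leaving out 1 library at a time without the block, the log2 fold change of SDC1 lay between 0.63 (without Vector replicate 1) and 1.495 (without oeCSGALNACT2 replicate 1). GPC1, glypican-1, had 2.01, 6.27 and 6.17 FPKM in oeCSGALNACT2 cells, against 0.607, 2.78 and 3.25 FPKM in Vector cells (limma adjusted p = 0.446 without the block and 0.00236 with it). SDC2 averaged 3.42 ± 0.937 FPKM in oeCSGALNACT2 and 1.83 ± 0.248 FPKM in Vector cells, without overlap (as for 11.2% of all genes in this direction). SDC3 averaged 12.3 ± 5.77 FPKM in oeCSGALNACT2 and 8.90 ± 3.78 FPKM in Vector cells (SD, n = 3 libraries each for both genes). Limma's adjusted p for SDC2 and SDC3 was 0.00952 and 0.0178 with the block, and 0.188 and 0.743 without. The matrix proteoglycan genes HSPG2, AGRN and COL18A1 and the syndecan gene SDC4 did not pass in either fit. Without Vector replicate 1 and with no block, the log2 fold change was 0.43 for GPC1 (0.87 with all libraries) and 0.022 for SDC3 (0.39 with all libraries).

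**Figure D4:**
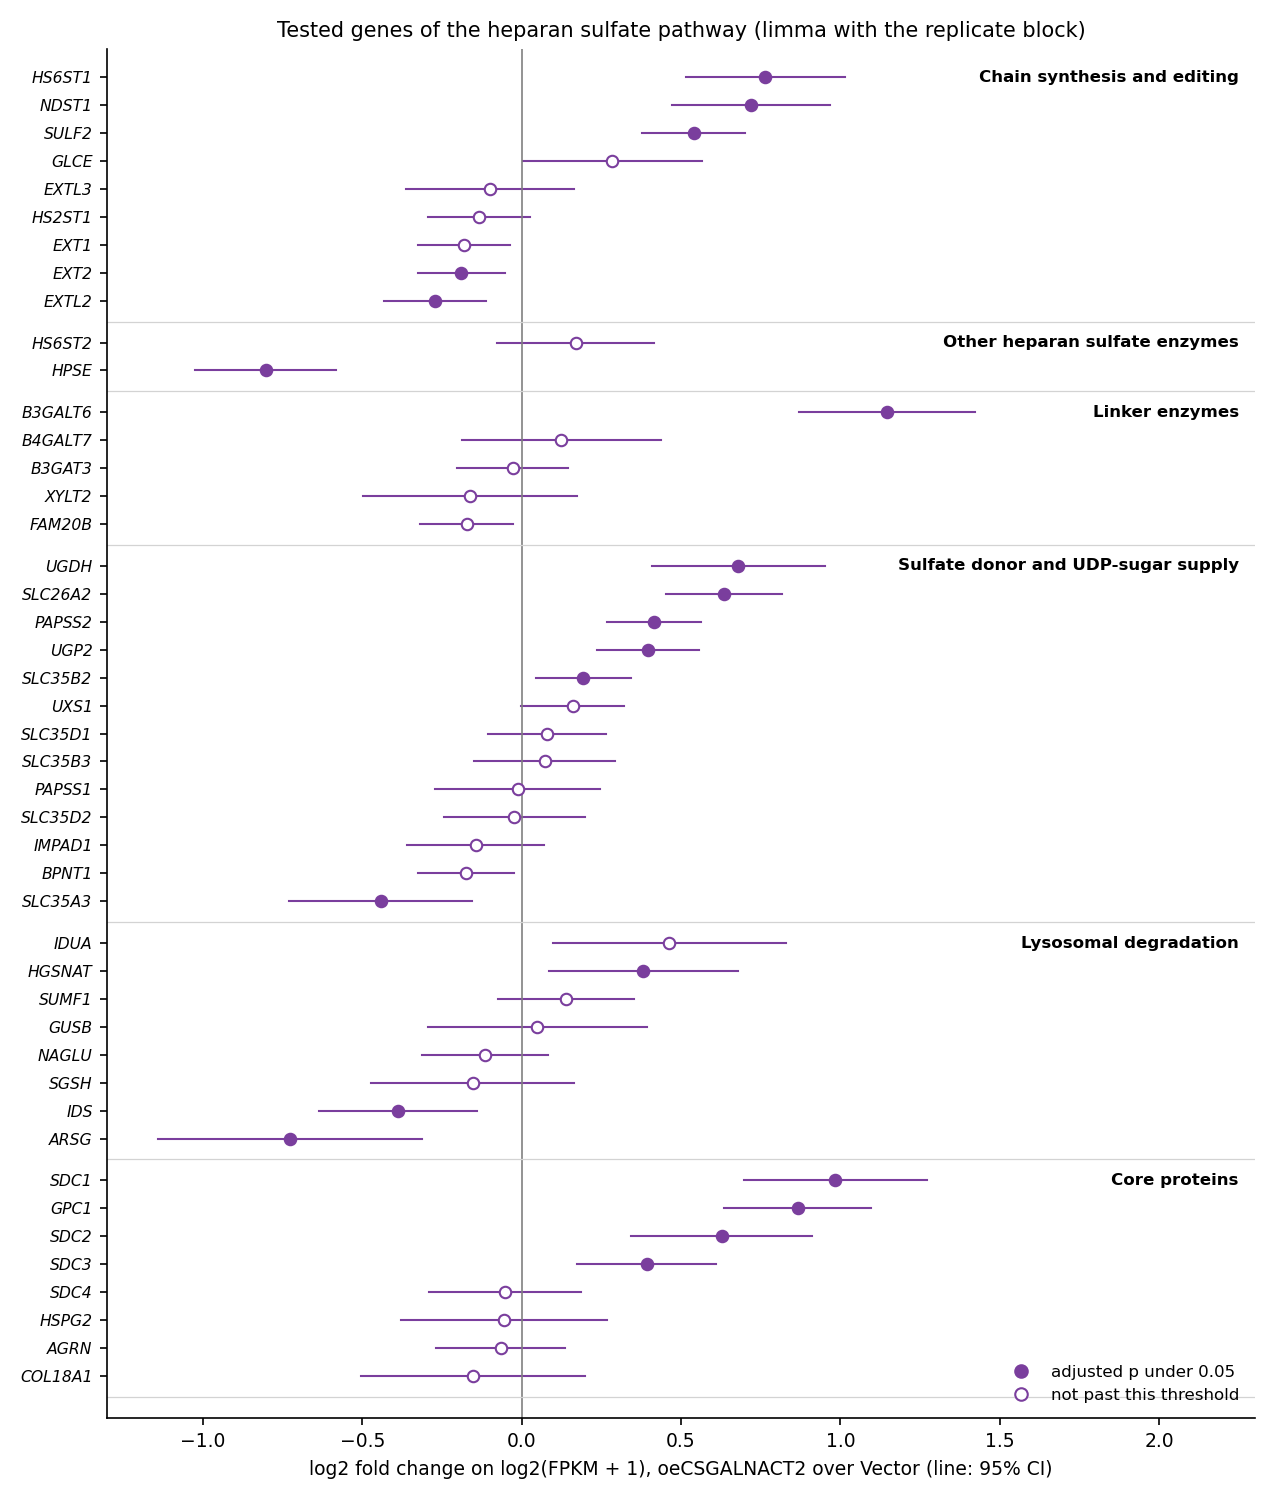
Log2 fold changes between oeCSGALNACT2 and Vector cells, on log2(FPKM + 1), with 95% confidence intervals from limma with the replicate number as a block, for the 9 tested chain synthesis and editing genes and 36 of the 38 tested genes of the 5 other lists. Filled points passed an adjusted p of 0.05 in this fit, and none of these genes passed in limma on all 6 libraries without the block. The filled points lie on both sides of 0 in the first, donor and lysosomal lists and above 0 alone in the core protein list. The linker list has 1 filled point, above 0, and the list of other heparan sulfate enzymes has 1, below 0.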

How the data were processed

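RNA of HEY cells was sequenced in 3 oeCSGALNACT2 and 3 Vector libraries, grouped by their labels. The authors deposited raw read counts per gene and FPKM values, in which counts are scaled by gene length and library size. A second deposited FPKM table repeats these values with group means and was not used. RNA with an RIN of at least 8.0 went into SMARTER mRNA libraries. For the aligner and counter, names were not given in the sources used here. Processing notes of the submitters name mm10, but all 58735 genes of the deposited table lie at the positions of GENCODE 29 on GRCh38, the build of the coordinates given. The counts at hand cover 1310 genes, with 59.0% to 59.9% of the reads, so FPKM was tested. FPKM multiplied by gene length and a constant per library gave whole reads, within 0.01, in 100% of non-zero values, and these equalled the deposited counts for all 1310 genes.

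Limma 3.58.1 (R 4.3.3) was fitted with a variance trend to log2(FPKM + 1) of 11479 genes, those averaging at least 1 FPKM, and p-values were adjusted by Benjamini and Hochberg over all of them, at a threshold of 0.05. Alternatives were a pseudocount of 0.1, no filter, only protein-coding genes, a block for the replicate number, edgeR 4.0.16 and DESeq2 1.42.0 on these reads (also with other size factors and filters), each library left out in turn, replicates 2 and 3 alone and, added after seeing the data, removal of a lowess GC trend per library (span 0.3) with the block. Deviations from the group means correlated across genes between same-numbered libraries (Pearson's r 0.810 for replicates 1, 0.631 for 2 and 0.686 for 3), and the libraries were treated as paired by number. This pairing comes from the data, not the labels. Vector replicate 3 with oeCSGALNACT2 replicate 2 (0.682) and Vector replicate 2 with oeCSGALNACT2 replicate 3 (0.590) correlated as well, so pairing by number is not shown for 2 and 3.

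All 10 genes were named, and in each other list up to 4 genes with the smallest p, since none passed in limma without the block; 2 genes of this rule are not reported here. The genes, lists and alternatives were chosen with earlier results of these data known. Ratios were tested on the log2 scale by exact permutation. Confidence intervals are limma's and come from the spread between libraries, and floors of read counts cover counting error only. Promoter sequences came from RefSeq, where 8 of the 10 genes matched.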

Additional observations from a re-analysis of the deposited data

How the results depend on the processing

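Of all genes, 155 were called in limma. The count was 31 with no filter, 365 in edgeR on all genes with at least 1 read, 731 in DESeq2, 5017 in limma with the replicate block, 6058 in edgeR with the block, 4800 in replicates 2 and 3 alone and 4898 after GC correction with the block. Leaving out 1 library gave 5 to 159. Of the 9 tested heparan sulfate genes, 0 were called in limma, 5 in limma with the block, 5 in edgeR with the block, 6 in replicates 2 and 3 alone and 5 after GC correction with the block, and 0 under every other alternative run. Of the genes in the 5 other lists the counts were 0 in limma, 17 in limma with the block, 17 in edgeR with the block, 2 in DESeq2, 15 in replicates 2 and 3 alone and 15 after GC correction with the block, and 0 under the others. For single genes and ratios, 389 values under alternatives kept their direction and side of the threshold or moved by less than the spread, 77 passed the threshold only under the alternative, and 14 changed sign. The sign changed among fits that left out 1 library, with log2 fold changes from -0.58 to 0.029 for EXTL2, from -0.27 to 0.20 for EXTL3, from -0.34 to 0.088 for HS2ST1, from -0.36 to 0.010 for FAM20B, from -0.088 to 0.46 for B4GALT7 and from -0.60 to 0.47 for XYLT2. It also changed in replicates 2 and 3 alone for EXTL3 (0.036) and XYLT2 (0.028), and after GC correction with the block for B4GALT7 (-0.021). The cause of these changes was not tested. The calls of heparan sulfate genes rest on a pairing by replicate number that no label states, or on leaving out replicate 1 of both groups. With 3 libraries per group, an exact permutation test cannot go below p = 0.1. Few or no reads limit what can be said of NDST2 and most 3-O-sulfotransferases. For NDST2, whether depth or the exon bases shared with AC022400.6 account for this was not tested.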
